A study of Homo sapiens with 9 samples.

Results

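NODAL, LEFTY1, LEFTY2, TDGF1, BMP4, BMP7, ID1, ID2, ID3 and SMAD7 were followed across RNA sequencing of TCam-2, an established line of human seminoma. These 10 genes, taken by symbol from 63856 listed genes, are ligands, antagonists, targets and an inhibitor of the NODAL and BMP pathways, and 8 of them had enough counts to be tested, beside 18452 tested genes in all. LEFTY1 and LEFTY2 did not pass the count filter. The study asked what follows in these cells when ESX1, a homeobox gene of the X chromosome, is activated. Its 9 samples fell into 3 groups of 3 biological replicates. WT was the unmodified cell line. NC was the line transfected with a vector carrying GFP and guide RNAs that have no target in the human genome. ESX1 was the line in which the gene was activated with CRISPRa, a catalytically dead Cas9 fused to the VPR activator and directed to the promoter by specific guide RNAs. The ESX1 guides were in the same GFP vector. Whether NC cells also received the activator plasmid is not stated, so ESX1 and NC may differ in it as well as in the guides. Transfected cells were selected with puromycin and induced with doxycycline, and only some of them carried the GFP signal, so that the NC and ESX1 samples were mixtures of cells. All groups therefore share 1 cell line, and WT differs from the other groups in transfection and selection as well as in the guides.

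NODAL is a secreted ligand of the TGF-beta superfamily that signals through activin receptors and the SMAD2 and SMAD3 proteins, and it needs TDGF1 (Cripto) as a co-receptor at the cell surface. LEFTY1 and LEFTY2 are secreted antagonists that NODAL signalling itself induces. BMP4 and BMP7 are ligands that act through BMP receptors and SMAD1, SMAD5 and SMAD9. The ID genes are the classical early targets of that branch, and their proteins bind E proteins, a class of helix-loop-helix transcription factors, and keep them from DNA. SMAD7 is an inhibitory SMAD that is induced by the pathways it blocks. In the embryo BMP signals induce primordial germ cells, and NODAL signalling with TDGF1 is known from pluripotent cells and from tumours of the germ line.

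The promoters of the 3 ID genes are shown because these genes are known as targets of the same branch and yet differed in their values across the groups. Each is the 250 bases upstream of the start of the RefSeq gene in GRCh38.p14, written 5′ to 3′ on the strand of the gene. They lie at chr20:31605039-31605288 on the plus strand for ID1, at chr2:8681806-8682055 on the plus strand for ID2 and at chr1:23559502-23559751 on the minus strand for ID3. By the gene positions used for the counts, the ID2 and ID3 windows lie inside these genes, whose listed starts are farther upstream. Capitals mark matches on either strand to CAGAC, the letters of a SMAD binding element, and to CCAAT, the letters of the CCAAT box, and GGCGCC, the letters of a BMP-type SMAD element, was searched as well.

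ID1: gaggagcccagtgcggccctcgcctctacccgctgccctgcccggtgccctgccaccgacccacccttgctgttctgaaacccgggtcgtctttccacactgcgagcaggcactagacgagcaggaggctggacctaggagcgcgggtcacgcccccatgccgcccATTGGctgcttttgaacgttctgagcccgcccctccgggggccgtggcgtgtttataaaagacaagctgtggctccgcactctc

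ID2: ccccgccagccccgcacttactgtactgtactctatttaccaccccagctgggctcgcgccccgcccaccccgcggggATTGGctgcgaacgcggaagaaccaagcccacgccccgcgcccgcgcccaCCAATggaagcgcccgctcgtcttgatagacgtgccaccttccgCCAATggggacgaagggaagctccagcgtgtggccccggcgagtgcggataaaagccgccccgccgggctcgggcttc

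ID3: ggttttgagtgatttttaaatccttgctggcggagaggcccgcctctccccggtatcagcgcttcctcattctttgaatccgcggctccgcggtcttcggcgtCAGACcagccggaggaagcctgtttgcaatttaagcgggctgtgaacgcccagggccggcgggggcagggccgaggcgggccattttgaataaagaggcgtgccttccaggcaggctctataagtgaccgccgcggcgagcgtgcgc

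The CCAAT letters occurred 1 time in ID1 and 3 times in ID2, and CAGAC occurred 1 time in ID3. GGCGCC occurred 0 times in all 3 windows, and no matches overlapped. Of 35116 RefSeq promoters of the same length, 32.0% held CCAAT, 38.0% held CAGAC and 16.4% held GGCGCC. GC content was 66.0% for ID1, 69.2% for ID2 and 62.0% for ID3. These matches describe the letters of the windows and no binding was measured. Sequence outside the windows was not searched.

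Total counts per sample ranged from 5212804 in ESX1 replicate 3 to 10644408 in WT replicate 3, so that 1 CPM, a count scaled to the depth of its library, stood for 5.44 to 9.99 counts. The targeted gene was checked first. ESX1 was at 56.7, 55.5 and 31.2 CPM in the ESX1 samples, at 3.61, 2.88 and 3.44 in NC and at 3.59, 4.07 and 3.12 in WT, which fits the labels. Mitochondrial genes took 17.0% to 18.3% of the counts in WT, 14.5% to 15.3% in NC and 19.2% to 19.9% in ESX1, so that this share separated the groups. The 10 seminoma-type markers, among them POU5F1, SOX17 and TFAP2C, summed to 3784 to 4648 CPM in WT, 2855 to 3062 in NC and 1601 to 1945 in ESX1. Of the 10, 8 were called lower in ESX1 than in WT, 1 lower in ESX1 than in NC and 2 lower in NC than in WT. Of all tested genes, 11.5%, 1.78% and 5.27% were called in either direction. With no minimum fold 9, 7 and 7 of the 10 were lower, beside 28.8%, 4.25% and 17.1% of all genes in either direction. Fewer cells of a type and less RNA per cell cannot be told apart in such bulk samples. Markers of embryonal carcinoma summed to 74.2 to 86.4 CPM in WT, 63.1 to 72.7 in NC and 55.5 to 66.9 in ESX1, mostly from DNMT3B, while SOX2 was called higher in NC than in WT by a log2 fold change of 1.23 (edgeR, adjusted p = 0.0222). Markers of Sertoli or Leydig cells summed to 9.15 to 15.01 CPM in WT, 11.4 to 17.5 in NC and 10.2 to 24.8 in ESX1, with INSL3 and HSD3B2 at 0 in each sample, and of the 3 tested SOX9 was called higher in ESX1 than in NC by 1.83 (edgeR, adjusted p = 0.0120). Markers of fibroblasts and endothelium summed to 181 to 336 CPM in WT, 131 to 169 in NC and 108 to 226 in ESX1. Most of this sum was COL1A2, at −0.90 in both ESX1 and NC against WT and short of 2-fold, whereas COL1A1 was called higher than in WT by 2.27 in ESX1 (edgeR, adjusted p = 0.000236) and 2.19 in NC (edgeR, adjusted p = 0.000708). The part of these markers and of the mitochondrial share in the values below was not tested.

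Each pair of groups was compared with edgeR's quasi-likelihood test, and its p-values were adjusted over all 18452 genes by the Benjamini-Hochberg procedure. A gene counted as called where the groups differed 2-fold or more and the adjusted p was below 0.05. Between ESX1 and WT, 3 of the 8 tested members were called, where TDGF1 was lower and ID2 and SMAD7 were higher, and 11.5% of all tested genes were called in this comparison. Between ESX1 and NC, 0 of the 8 were called, against 1.78% of all tested genes, and ID2 was the 1 member with an adjusted p below 0.05, against 4.25% of all. DESeq2 and limma also called 0 of the members here, and 3 of the 8, TDGF1, ID2 and SMAD7, had an unadjusted p below 0.05 in edgeR. The share of all tested genes below that unadjusted p was not computed. Between NC and WT, TDGF1 was the 1 member called, lower in NC, against 5.27% of all tested genes. With no minimum fold, ID3 was added to ESX1 against WT and SMAD7 to NC against WT, where 28.8% and 17.1% of all genes passed. No member was called in the same direction against both controls, which 175 of all tested genes were on the higher side and 108 on the lower. WT served in a pair of these comparisons, and so did NC and ESX1, so that the comparisons share samples and are not independent.

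**Figure D1:**
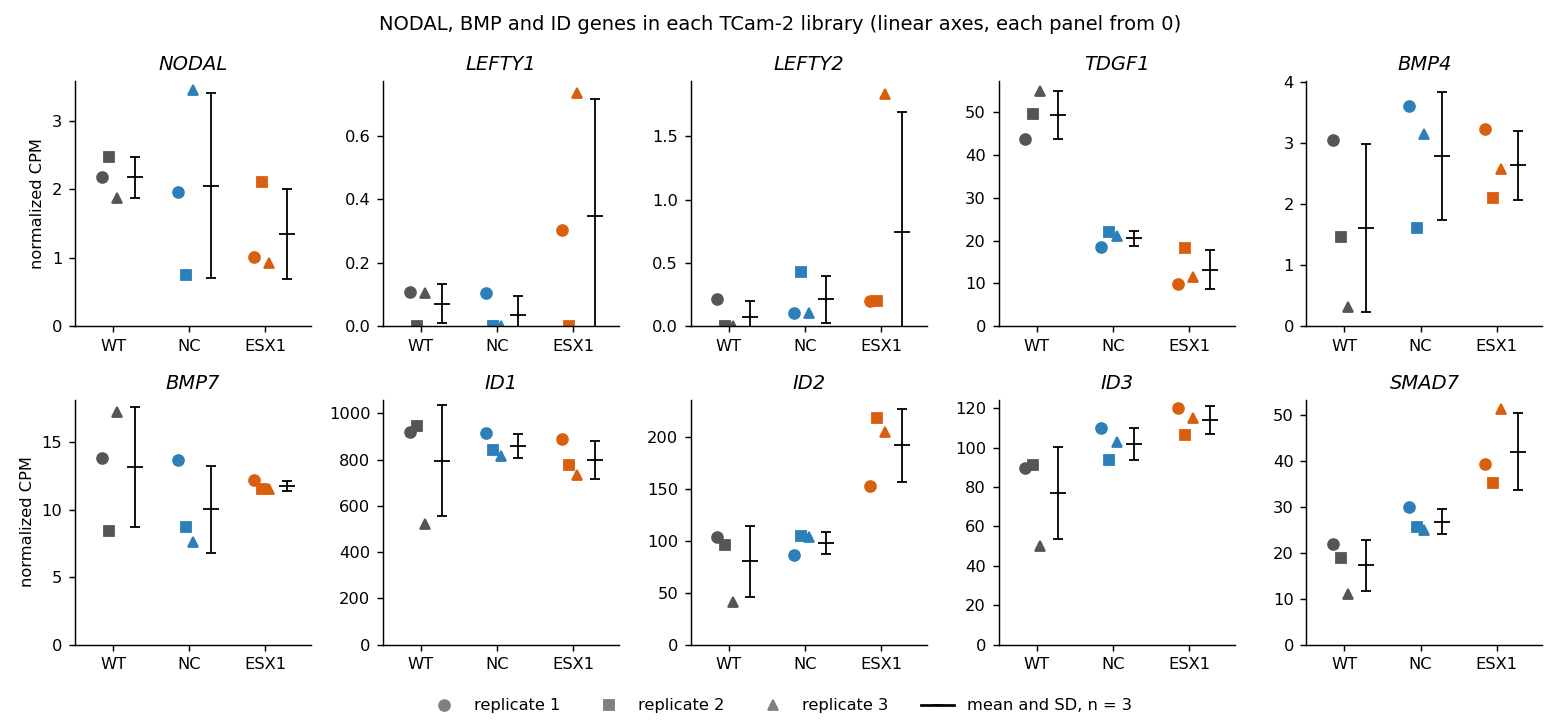
CPM of the 10 genes in each of the 9 samples, on axes that start at 0, grouped as WT, NC and ESX1, with the mean and the SD of 3 samples as bars. TDGF1 lay at 43.7 to 55.0 CPM in WT and at 9.89 to 18.3 in ESX1, SMAD7 and ID2 were highest in ESX1, and ID1 was low in WT replicate 3 alone.

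NODAL itself was rare. It had 20, 17 and 18 counts in WT, 19, 7 and 34 in NC and 10, 21 and 5 in ESX1, or 2.18, 2.47 and 1.87 CPM in WT, 1.96, 0.75 and 3.44 in NC and 1.01, 2.10 and 0.92 in ESX1. The NC samples spread from below to above all others, and the ESX1 samples overlapped both controls. The log2 fold change was −0.64 with a 95% interval of −1.74 to 0.47 between ESX1 and WT (edgeR, adjusted p = 0.391) and −0.57 with an interval of −1.66 to 0.53 between ESX1 and NC (edgeR, adjusted p = 0.670). At these counts a 2-fold fall or none could not be distinguished. NODAL (ENSG00000156574.9, chr10:70432315-70447951, minus strand, GRCh38) shares 41.2% of its exon bases with an antisense transcript, RP11-104F15.9, which itself had 2 to 11 counts. The counting used no strand option, so reads from the 2 strands cannot be told apart there.

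The antagonists were at the limit of detection. LEFTY1 had 0 to 1 counts in each of the WT and NC samples and 3, 0 and 4 counts in ESX1. LEFTY2 had 2, 0 and 0 counts in WT, 1, 4 and 1 in NC and 2, 2 and 10 in ESX1. The highest values of both genes were in ESX1 replicate 3, the sample of lowest depth, at 0.73 and 1.84 CPM, and the groups overlapped for both. Neither gene was tested, and no fold is given. LEFTY1 (ENSG00000243709.1, chr1:225886282-225911382) and LEFTY2 (ENSG00000143768.12, chr1:225936598-225941489) lie next to each other on the minus strand and are near-identical copies, so their counts are uncertain as to which gene they belong to. A readthrough transcript that covers 46.6% of the LEFTY1 exon bases had 0 counts.

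TDGF1, the NODAL co-receptor and a gene typical of pluripotent cells, had the largest log2 fold change of the members against WT. It stood at 43.7, 49.5 and 55.0 CPM in WT, at 18.5, 22.0 and 21.1 in NC and at 9.89, 18.3 and 11.4 in ESX1. Every NC sample lay below every WT sample, and every ESX1 sample below every NC sample, with ESX1 replicate 2 just below the lowest NC sample. The means were 49.4 ± 5.62 (SD, n = 3), 20.5 ± 1.82 and 13.2 ± 4.50. TDGF1 fell by 1.89 on the log2 scale (SE 0.200) between WT and ESX1, to 0.270 of the WT level (edgeR, adjusted p = 2.78e-06). It fell by 1.27 (SE 0.192) between WT and NC (edgeR, adjusted p = 0.000298). Both calls held when any 1 sample was left out and under every alternative run. Between ESX1 and NC the log2 fold change was −0.62, with an interval of −1.05 to −0.20, and the adjusted p was 0.102 (edgeR). That comparison passed the adjusted p in 1 of the 9 fits that left out 1 sample, where the adjusted p ran from 0.00480 to 0.311, and in 2 of 8 other alternatives. The 1 was the fit without ESX1 replicate 2, where TDGF1 was lower by a log2 fold change of −0.96. TDGF1 (ENSG00000241186.9, chr3:46574534-46582463, plus strand) has processed pseudogenes, of which TDGF1P3 had 2 to 33 counts, TDGF1P5 4 to 30 and TDGF1P6 2 to 12, beside 62 to 528 counts on TDGF1, so a part of its reads could be divided among them.

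Of the BMP ligands, BMP4 was low and BMP7 moderate. BMP4 was at 3.05, 1.45 and 0.31 CPM in WT, at 3.61, 1.60 and 3.14 in NC and at 3.23, 2.10 and 2.57 in ESX1, from 3 to 35 counts. All groups overlapped, and WT replicate 3, with 3 counts, was the lowest of the 9 samples. The log2 fold change of BMP4 was 0.72 between ESX1 and WT (interval −0.44 to 1.87; edgeR, adjusted p = 0.353) and −0.08 between ESX1 and NC (interval −1.16 to 1.01; edgeR, adjusted p = 0.969). Without WT replicate 1 it passed the threshold in both comparisons with WT, at 1.66 for ESX1 (edgeR, adjusted p = 0.0455) and at 1.74 for NC (edgeR, adjusted p = 0.0472), and without WT replicate 3 it was 0.19 for ESX1 and 0.28 for NC, in place of 0.80 (edgeR, adjusted p = 0.334) with all samples.

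BMP7 was at 13.8, 8.43 and 17.3 CPM in WT, at 13.7, 8.75 and 7.60 in NC and at 12.2, 11.5 and 11.6 in ESX1. The ESX1 samples were nearly alike and lay inside the range of both controls. Its log2 fold change was −0.17 between ESX1 and WT, with an interval of −0.72 to 0.37 (edgeR, adjusted p = 0.661), and 0.23 between ESX1 and NC, with an interval of −0.32 to 0.78 (edgeR, adjusted p = 0.740). BMP4 (ENSG00000125378.15, chr14:53949736-53958761) and BMP7 (ENSG00000101144.12, chr20:57168748-57266629), both on the minus strand, share no exon base with another listed gene.

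The 3 ID genes did not behave alike. ID1 was by far the most abundant, at 919, 947 and 521 CPM in WT, 917, 842 and 815 in NC and 891, 775 and 732 in ESX1. Apart from the low WT replicate 3, all samples lay between 732 and 947 CPM, and the groups overlapped. The log2 fold change was 0.01 between ESX1 and WT (interval −0.33 to 0.35; edgeR, adjusted p = 0.975), −0.10 between ESX1 and NC (interval −0.44 to 0.24; edgeR, adjusted p = 0.835) and 0.11 between NC and WT (interval −0.23 to 0.45; edgeR, adjusted p = 0.688). These intervals leave no room for a 2-fold difference in ID1 in any of the 3 comparisons. Without WT replicate 3 the differences from WT were −0.23 for ESX1 and −0.12 for NC, neither with an adjusted p below 0.05. ID1 (ENSG00000125968.8) lies at chr20:31605283-31606515 on the plus strand.

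ID2 was the member with the largest difference between ESX1 and NC. It was at 104, 95.7 and 40.8 CPM in WT, at 85.8, 105 and 104 in NC and at 152, 218 and 204 in ESX1. Every ESX1 sample lay above every control sample, while NC and WT overlapped. The means were 80.1 ± 34.3 (SD, n = 3) in WT, 98.0 ± 10.6 in NC and 192 ± 34.9 in ESX1. The log2 fold change between ESX1 and WT was 1.26 (SE 0.238; edgeR, adjusted p = 0.000747), and without WT replicate 3 it was 0.93 (edgeR, adjusted p = 0.000308), below the 2-fold limit. Between ESX1 and NC it was 0.97 (SE 0.235, interval 0.47 to 1.46; edgeR, adjusted p = 0.0245), short of 2-fold. This adjusted p was 0.0942 in DESeq2 and 0.104 in limma on the authors' log2 values, and it was above 0.05 in 5 of the 9 fits without 1 sample: without ESX1 replicate 2 or 3 or without any of the 3 NC samples, at 0.0668 to 0.123. Without ESX1 replicate 1 the log2 fold change was 1.11 (edgeR, adjusted p = 0.0133), past both limits. Between NC and WT the log2 fold change was 0.30 (interval −0.20 to 0.79; edgeR, adjusted p = 0.422), and −0.028 without WT replicate 3. ID2 (ENSG00000115738.9) lies at chr2:8678845-8684453 on the plus strand, and its antisense neighbour ID2-AS1 had 9 to 23 counts, against 392 to 2181 on ID2.

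ID3 differed less. It was at 89.6, 91.1 and 50.2 CPM in WT, at 110, 93.7 and 103 in NC and at 120, 107 and 115 in ESX1. All ESX1 and all NC samples lay above all WT samples, and ESX1 overlapped NC. The log2 fold change was 0.57 between ESX1 and WT (SE 0.170; edgeR, adjusted p = 0.0176), 0.16 between ESX1 and NC (interval −0.20 to 0.51; edgeR, adjusted p = 0.721) and 0.41 between NC and WT (SE 0.169; edgeR, adjusted p = 0.103). Without WT replicate 3 the difference from WT was 0.33 for ESX1 (edgeR, adjusted p = 0.0713) and 0.18 for NC (edgeR, adjusted p = 0.412). ID3 (ENSG00000117318.8) lies at chr1:23557918-23559794 on the minus strand. A further family member, ID4, ranged from 37.0 to 74.2 CPM over all samples with log2 fold changes of 0.14, −0.08 and 0.22 in the 3 comparisons, and it was called in none.

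SMAD7, the inhibitory SMAD, had its highest values in ESX1. It was at 21.9, 18.7 and 11.03 CPM in WT, at 29.8, 25.5 and 24.9 in NC and at 39.4, 35.0 and 51.3 in ESX1. The groups followed each other without overlap, with all WT samples lowest and all ESX1 samples highest. The means were 17.2 ± 5.57 (SD, n = 3), 26.7 ± 2.68 and 41.9 ± 8.40. SMAD7 rose by a log2 fold change of 1.28 between WT and ESX1 (SE 0.214; edgeR, adjusted p = 0.000263), and this call held without WT replicate 3, at 1.03 (edgeR, adjusted p = 0.000828). Between NC and WT the log2 fold change was 0.64 (SE 0.214; edgeR, adjusted p = 0.0475), and its adjusted p was above 0.05 in 5 of the 9 fits without 1 sample, at 0.204 with a log2 fold change of 0.39 without WT replicate 3 and at 0.0811 to 0.153 without WT replicate 2 or any of the NC samples. Between ESX1 and NC it was also 0.64 (interval 0.20 to 1.07; edgeR, adjusted p = 0.0988), and it passed the adjusted p in 1 of the 9 fits without 1 sample, without WT replicate 3 at 0.0301, and in 3 of 8 other alternatives. SMAD7 (ENSG00000101665.8) is on the minus strand of chromosome 18.

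**Figure D2:**
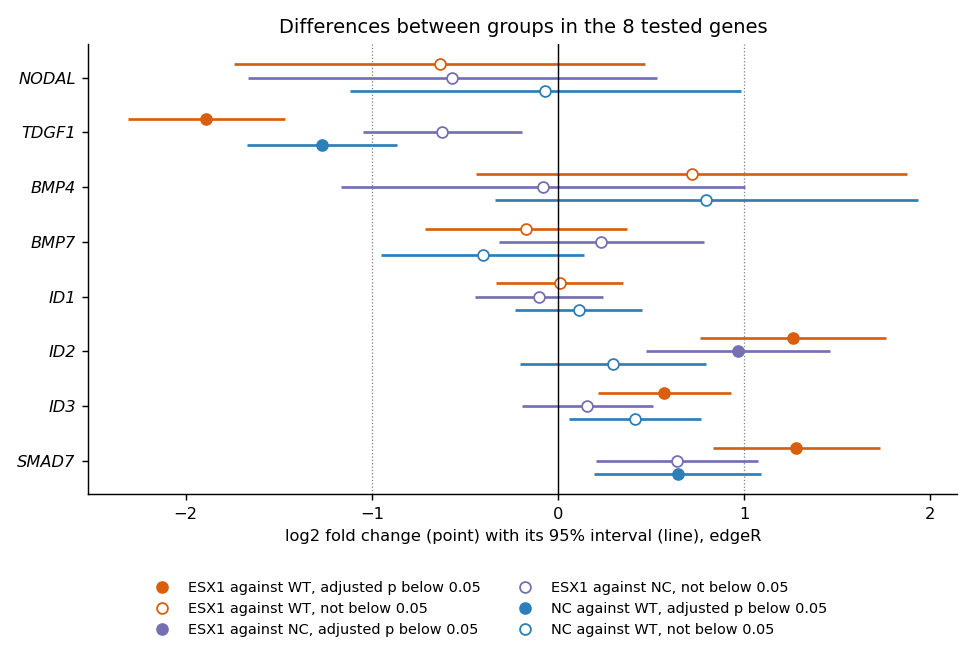
Log2 fold change of the 8 tested genes in each of the 3 comparisons, from edgeR, as points with their 95% intervals as lines. Filled points have an adjusted p below 0.05, and dotted lines mark 2-fold. TDGF1 lies to the left and ID2 and SMAD7 to the right in ESX1 against WT, while ID1 stays close to 0 in every comparison.

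Groups without overlap are frequent among 3 against 3 samples, and the counts of members were read against all tested genes. ESX1 and WT did not overlap in 4 of the 8 tested members, TDGF1, ID2, ID3 and SMAD7, against 40.3% of all tested genes. ESX1 and NC did not overlap in 3, TDGF1, ID2 and SMAD7, against 22.6%, and NC and WT in 3, TDGF1, ID3 and SMAD7, against 37.6%. The median log2 fold change of the 8 members was 0.29 between ESX1 and WT, 0.04 between ESX1 and NC and 0.20 between NC and WT, beside medians over all genes of 0.01, 0.00044 and 0.01.

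WT replicate 3 stood apart from the other WT samples in these genes. BMP4, ID1, ID2, ID3 and SMAD7 were lower in it than in each of the other 8 samples, at 0.139, 0.558, 0.409, 0.555 and 0.544 of the mean of WT replicates 1 and 2. TDGF1 and BMP7 were higher in it than in each of the other 8, at 1.18 and 1.55 of that mean. Of all tested genes, 14.5% were lower and 17.3% higher in this sample than in each of the other 8. NODAL was at 0.807. Over all tested genes the median log2 difference of this sample from the other WT samples was 0.03, and 4.24% of genes were 2-fold or more lower and 3.20% higher. The differences of these 5 genes from WT are given above with and without this sample.

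The counts of ID1, which shared the low value of that sample, were also used as the denominator within each library. This choice was made after the low values had been seen. ID3 counts were then 9.75%, 9.62% and 9.63% of ID1 counts in WT, 11.98%, 11.1% and 12.6% in NC and 13.5%, 13.7% and 15.7% in ESX1. The WT samples, which differed in ID3 CPM, were nearly equal on this scale, and the groups did not overlap. In WT replicate 3, ID1 and ID3 stood at 0.558 and 0.555 of the mean of WT replicates 1 and 2. The near equality therefore came partly with the choice of ID1. Mean ID1 was 858 CPM in NC and 799 in ESX1, which adds to the separation of these groups in the ratios. In CPM, ID3 overlapped between ESX1 and NC. SMAD7 was at 2.38%, 1.98% and 2.12% in WT, 3.25%, 3.03% and 3.06% in NC and 4.42%, 4.52% and 7.003% in ESX1, again with each group above the former. ID2 was at 11.3%, 10.1% and 7.83% in WT, 9.36%, 12.4% and 12.7% in NC and 17.1%, 28.2% and 27.9% in ESX1, where NC and WT overlapped and ESX1 stood above both. ID4, a further family member, was at 4.45%, 7.84% and 7.09% in WT and 5.25%, 7.72% and 7.72% in NC. In ESX1 it was at 5.09%, 8.18% and 7.86%, and all groups overlapped. All ESX1 samples above all NC samples and all NC samples above all WT samples was a pattern that 1.44% of tested genes showed on this scale. In edgeR with the ID1 counts as library sizes, ID2 differed by a log2 fold change of 1.32 between ESX1 and WT (adjusted p = 0.000525) and of 1.08 between ESX1 and NC (adjusted p = 0.0346). The median of all tested genes was then −0.095 in ESX1 against WT, 0.105 in ESX1 against NC and −0.196 in NC against WT. ID2 between ESX1 and NC, 0.97 in the main fit, moved in the direction of that shift. Between ESX1 and NC, 1.02% of all tested genes were higher and 0.331% lower at an adjusted p below 0.05. SMAD7 differed by 1.29 between ESX1 and WT (edgeR, adjusted p = 0.00177) and had 0.77 between ESX1 and NC (edgeR, adjusted p = 0.428), while ID3 had 0.57 (edgeR, adjusted p = 0.236) and 0.27 (edgeR, adjusted p = 0.9997). The order of ID3 on this scale is therefore a description that the test over all genes did not pass.

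**Figure D3:**
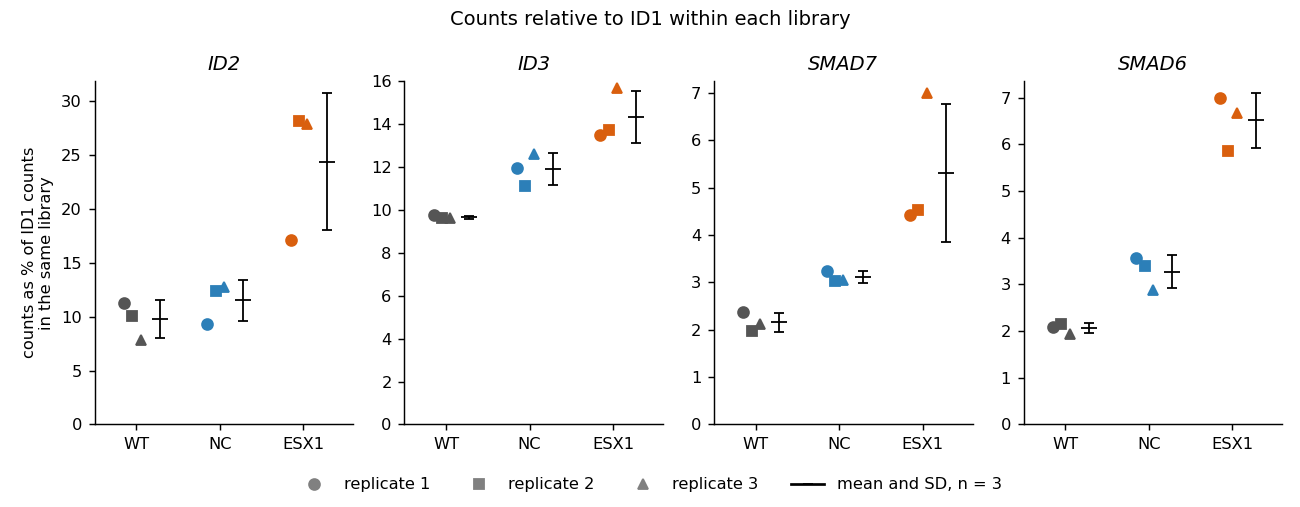
Counts of ID2, ID3, SMAD7 and SMAD6 as a percentage of the ID1 counts of the same library, on axes from 0, in WT, NC and ESX1, with symbols for the replicates and bars for the mean and SD of 3 samples. The samples of ID3, SMAD7 and SMAD6 lie in the order WT, NC, ESX1 without overlap, and those of ID2 lie highest in ESX1 with WT and NC overlapping. ID4, whose groups overlapped in every comparison on this scale, is not shown.

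Levels were compared between genes only as CPM per kilobase of exon. In WT, ID1 stood at 645 per kilobase, ID3 at 42.8 and ID2 at 36.3, with these last not separated beyond their spread. TDGF1 followed at 16.4, then SMAD7 at 4.66 and BMP7 at 2.43, which overlapped, NODAL at 1.28 and BMP4 at 0.520, and LEFTY1 and LEFTY2 lay below 0.04. In ESX1 the order among the abundant genes differed. ID1 was at 648, ID2 at 86.9 and ID3 at 63.4 per kilobase, so that ID2 stood above ID3, and SMAD7 at 11.3 stood above TDGF1 at 4.39. In NC, ID3 at 56.8 was above ID2 at 44.5, and SMAD7 at 7.24 and TDGF1 at 6.82 could not be separated.

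A list of 70 other genes of these pathways was counted in the same fit, of which 50 were tested. Between ESX1 and WT, 4 were called higher and 1 lower, between ESX1 and NC 0 were called by edgeR, DESeq2 or limma, and between NC and WT 3 were called higher and 0 lower. These are 10%, 0% and 6% of the 50, close to the shares of 11.5%, 1.78% and 5.27% among all tested genes. Without a minimum fold the counts were 11 higher and 9 lower, 2 higher and 0 lower, and 7 higher and 5 lower. These are 40%, 4% and 24% of the 50, beside 28.8%, 4.25% and 17.1% of all tested genes. Between ESX1 and NC, 11 of the 50 had an unadjusted p below 0.05 in edgeR. The share of all tested genes below that unadjusted p was not computed in any comparison, so these counts have no background. The median log2 fold change of the list was 0.09, 0.04 and 0.18, and it did not move when NOG, which had 0 counts in WT, was set at its bound. The type I and type II receptors were called in none of the comparisons, and neither were the co-receptors, the common SMAD4, or TCF3, TCF4 and TCF12, the E proteins that ID proteins bind. A gene not called may still differ by less than 2-fold. Between ESX1 and WT, 32 of the 50 had an unadjusted p below 0.05 in edgeR, 18 of them higher and 14 lower. These 32 include the receptors and co-receptors ACVR1, ACVRL1, BMPR1A, TGFBR1, ACVR2A, ACVR2B, TGFBR2, TGFBR3 and RGMA, none of which was called. Of the 3 E proteins, 1 was lower in ESX1 than in WT at an adjusted p below 0.05 (edgeR). The genes named from this list are those called in any comparison and those with an adjusted p below 0.05 against NC, and SMAD6, FOXH1, SKIL and MIXL1 among the genes below were chosen after their values were seen.

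SMAD6, the inhibitory SMAD of the BMP branch, had values like those of SMAD7. It was at 19.1, 20.3 and 10.1 CPM in WT, at 32.6, 28.6 and 23.4 in NC and at 62.4, 45.5 and 48.9 in ESX1, with no overlap between groups. Its log2 fold change was 1.67 between ESX1 and WT (SE 0.220; edgeR, adjusted p = 2.69e-05), or 1.40 without WT replicate 3, 0.78 between NC and WT (SE 0.220; edgeR, adjusted p = 0.0209) and 0.89 between ESX1 and NC, short of 2-fold (SE 0.210; edgeR, adjusted p = 0.0203). The NC and WT difference lost its adjusted p without NC replicate 1 or 2 or WT replicate 3, where it was 0.51 (edgeR, adjusted p = 0.0936). The ESX1 and NC difference lost it without ESX1 replicate 1 or NC replicate 2 or 3, with values up to 0.130, passed 2-fold at 1.01 without NC replicate 1, and was 0.0619 in limma on the authors' log2 values. As a percentage of ID1 counts SMAD6 was at 2.08%, 2.15% and 1.94% in WT, 3.56%, 3.40% and 2.87% in NC and 7.002%, 5.87% and 6.68% in ESX1. With the ID1 counts as library sizes, the difference from WT in ESX1 was 1.66 (edgeR, adjusted p = 1.93e-05), and those between ESX1 and NC and between NC and WT did not pass, at 0.99 and 0.67 (edgeR, adjusted p = 0.105 and 0.229). The CPM of both inhibitory SMADs were highest in ESX1 and intermediate in NC. SMAD6 was chosen after its values were seen, and the share of all tested genes with this order in CPM was not computed.

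NOG encodes noggin, a secreted protein that binds BMP ligands. It had 0 counts in all 3 WT samples, 8, 5 and 12 in NC and 33, 19 and 15 in ESX1. Against a floor of 3 counts per WT library, it was at least 7.44-fold higher in ESX1 (edgeR, adjusted p = 7.40e-05) and at least 2.40-fold higher in NC (edgeR, adjusted p = 0.00320). Between ESX1 and NC the log2 fold change was 1.61 (edgeR, adjusted p = 0.114). GDF15, a distant member of the ligand superfamily known as a stress-responsive cytokine, was at 0.73 to 1.52 CPM in WT, 5.17 to 7.33 in NC and 7.31 to 17.1 in ESX1. It rose by a log2 fold change of 3.34 in ESX1 and 2.45 in NC over WT (edgeR, adjusted p = 4.30e-06 and 0.000337), and had 0.89 between ESX1 and NC (edgeR, adjusted p = 0.116), which was 1.15 without ESX1 replicate 2 (edgeR, adjusted p = 0.0253). SMAD9, a receptor SMAD of the BMP branch, rose by 1.54 in ESX1 and 1.14 in NC over WT (edgeR, adjusted p = 0.000461 and 0.00835), and the latter was 0.89 without WT replicate 3, below 2-fold. SKIL, a repressor of SMAD complexes, had 0.61 over WT and 0.53 over NC in ESX1 (edgeR, adjusted p = 0.00399 and 0.0427), and the latter held in 4 of the 9 fits without 1 sample, with 0.40 (edgeR, adjusted p = 0.220) without NC replicate 1. FOXH1, the DNA-binding partner of SMAD2 in the response to NODAL, was the 1 gene of the list called lower, at 2.83, 2.18 and 4.48 CPM in WT, 2.17, 1.39 and 0.91 in NC and 0.71, 0.50 and 0.73 in ESX1, with a log2 fold change of −2.30 between ESX1 and WT (edgeR, adjusted p = 0.00242). FOXH1 had −1.21 between ESX1 and NC (edgeR, adjusted p = 0.260).

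**Figure D4:**
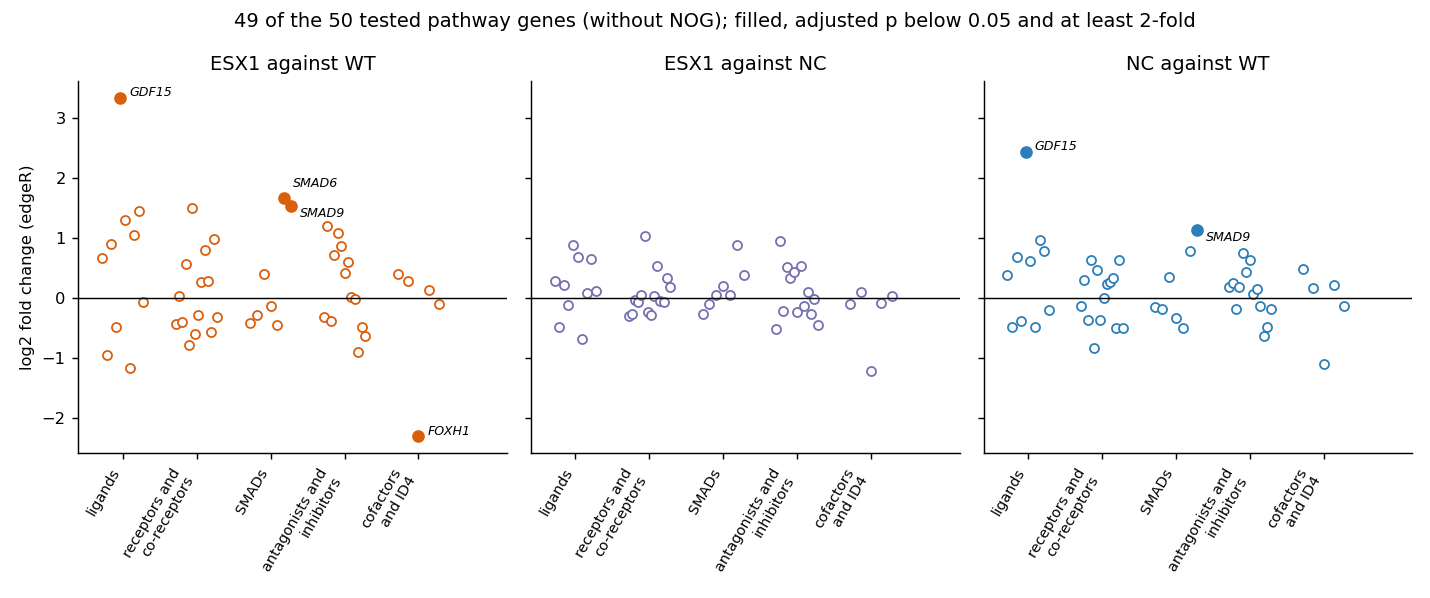
Log2 fold changes from edgeR of 49 of the 50 tested pathway genes, by role, in each comparison, with filled points for genes called at an adjusted p below 0.05 and at least 2-fold. NOG is left out because its WT counts are 0. GDF15, SMAD6, SMAD9 and FOXH1 are called in ESX1 against WT, GDF15 and SMAD9 in NC against WT, and no gene in ESX1 against NC.

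Genes known to respond to the pathways in other cells were also listed. Of 6 NODAL or activin targets, 2 were tested, and they differed in opposite directions. OTX2, a homeobox gene of the epiblast and forebrain, was at 15.3, 29.5 and 26.3 CPM in WT, at 7.02, 8.85 and 5.57 in NC and at 2.93, 4.51 and 2.39 in ESX1, with no overlap between groups. It fell by 2.81 on the log2 scale in ESX1 and by 1.72 in NC from the WT level (edgeR, adjusted p = 2.46e-06 and 0.000344), and between ESX1 and NC it had −1.08 (edgeR, adjusted p = 0.0555). That difference passed the threshold in DESeq2, at an adjusted p of 0.0190, and in 4 of 8 such alternatives in all, the others being the replicate block, the 6 samples alone and no filter (edgeR, adjusted p = 0.0180, 0.0473 and 0.00337). It also passed without ESX1 replicate 2 or WT replicate 1 (edgeR, adjusted p = 0.0267 and 0.0224), in 2 of 9 such fits. MIXL1, a gene of early mesendoderm, was higher in ESX1 than in WT by 1.29 (edgeR, adjusted p = 0.0196), and this was lost without ESX1 replicate 1 or WT replicate 2 (edgeR, adjusted p = 0.0935 and 0.0850). MIXL1 had 0.77 between ESX1 and NC (edgeR, adjusted p = 0.324). Of 7 BMP targets, 6 were tested, and 2 were called higher and 1 lower over WT in both ESX1 and NC. That is 50% of the 6, beside 11.5% and 5.27% of all tested genes, and the other tested targets were not called. The median log2 fold change of the 6 was 0.76 in ESX1 and 0.47 in NC against WT. GATA3 rose over WT by 2.58 in ESX1 and 2.07 in NC (edgeR, adjusted p = 7.00e-05 and 0.00128). GATA2 rose by 1.84 and 1.74 (edgeR, adjusted p = 0.0156 and 0.0319), with WT values of 5.55, 1.74 and 0.21 CPM and the lowest in WT replicate 3, and both calls were lost in DESeq2 (adjusted p = 0.0957 and 0.162) and held in 7 and 4 of the 9 fits without 1 sample. Without WT replicate 1 they were 3.34 and 3.24, and without WT replicate 3 they were 1.26 and 1.15. ATOH8 fell by 2.15 and 2.13 (edgeR, adjusted p = 0.00574 and 0.00906). None of these BMP targets was called between ESX1 and NC. In limma on the authors' log2 values several differences from WT kept an adjusted p below 0.05 and fell short of 2-fold: ATOH8 at −0.88 in ESX1 and −0.92 in NC, FOXH1 at −0.87 and MIXL1 at 0.68 in ESX1, and NOG at 0.91, SMAD9 at 0.81 and GATA3 at 0.97 in NC.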

How the data were processed

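Total RNA of 9 TCam-2 samples was sequenced after depletion of ribosomal RNA with a strand-specific kit. The authors used HISAT2 2.0.5 with GRCh38.p7 for the read pairs and deposited unnormalized counts per gene from featureCounts, v1.5.2 in the file header and 1.6.5 in the submitters' processing notes, without strand, on GENCODE v26 per the file headers. They also deposited log2 values, described as normalized with DESeq2, of a transformation not given in the sources used here. Symbols were taken from the same row of the log2 table, and zeros matched in every cell. The 5637 genes outside primary chromosomes had 0 counts. Promoters came from a RefSeq table of GRCh38.p14.

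The tests ran in edgeR 4.0.16 under R 4.3.3 (filterByExpr, TMM, glmQLFit of the 3 group means over all 9 samples, glmQLFTest). CPM used the TMM-scaled library sizes. The standard error is the log2 fold change divided by the square root of F. DESeq2 1.42.0, limma 3.58.1 on the deposited log2 values, other factors, filters and thresholds, the 6 samples compared, a replicate block and omission of each sample were alternatives. Per the study, replicates were biological, and separate cultures are not described, so the spread may be partly technical. Intervals and floors of single counts cover counting error only. No pair of replicates agreed within sampling noise. The test was checked on simulated counts.

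The members and gene lists were chosen with earlier results of these data known. Every member is named, with ESX1, listed genes called against both controls or between NC and WT, and further genes as stated. Similarity of pattern was measured as the root mean square difference of centred log2 CPM (prior count 2).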

Additional observations from a re-analysis of the deposited data

How the results depend on the processing

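Of the log2 fold changes of the 8 tested members, 185 kept direction and call under other tests, factors, filters and sample sets, and 1 reversed: NODAL between NC and WT was 0.017 with upper-quartile factors, which moved the median of all genes by 0.10 between ESX1 and WT and the share of higher calls between NC and WT from 59.2% to 69.5%. With 1 sample left out, 201 kept both, 3 newly passed the threshold and 1 fell short of it, as given in the report, and 11 that were not called reversed. Ranges over these fits were −0.23 to 0.14 for ID1, −0.41 to 0.065 for BMP7 between ESX1 and WT, −0.36 to 0.15 for BMP4 and −1.07 to 0.034 for NODAL between ESX1 and NC, and −0.65 to 0.34 for NODAL, −0.12 to 0.25 for ID1 and −0.028 to 0.53 for ID2 between NC and WT. Among genes added later, ATOH8 ran from −0.45 to 0.52 and GATA2 from −0.085 to 0.38 between ESX1 and NC, and SKIL from −0.038 to 0.23 between NC and WT. ATOH8 between ESX1 and NC was 0.035 in limma and 0.037 with the replicate block.

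Without a minimum fold, 20 pathway genes and 5306 genes in all passed between ESX1 and WT, 1 member, 2 pathway genes and 784 in all between ESX1 and NC, and 2 members, 12 pathway genes and 3158 in all between NC and WT. With at least 10 counts in every sample, which leaves NODAL and BMP4 untested, 3 pathway genes and 1192 in all were called between ESX1 and WT, 200 in all between ESX1 and NC, and 1 pathway gene and 563 in all between NC and WT. Limma on the authors' log2 values called 935, 158 and 332 genes in all and 1 pathway gene between NC and WT. With upper-quartile factors 8 pathway genes were called between ESX1 and WT. Leaving out 1 sample gave 5 to 10 pathway genes and 2 to 4 members between ESX1 and WT, 0 to 1 members, 0 to 1 pathway genes and 209 to 434 genes in all between ESX1 and NC, and 1 to 2 members between NC and WT. Fewer genes tested or samples fitted changed these counts by construction in part, and the cause was otherwise not tested.

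Same-numbered samples did not deviate together throughout, with correlations of −0.030 to 0.193. Such values cannot settle whether same-numbered samples shared a culture or day, so the replicate block was kept as an alternative. With the replicate block 3, 0 and 1 members, 6, 0 and 3 pathway genes and 2109, 358 and 1003 genes in all were called in the 3 comparisons, and TDGF1 between ESX1 and NC had an adjusted p of 0.0385 (edgeR). Counts of 0 to 35 in NODAL, BMP4 and both LEFTY genes limit what can be seen in them.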

Other observations

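For 1 ligand of each branch and the most abundant target, the tested genes with the most similar pattern over the 9 samples were listed as a description, by the root mean square difference of centred log2 values. For ID1 these were FANCC (0.108), KIFC3 (0.135) and ACTG1 (0.139), each also lowest in WT replicate 3. For BMP4 they were a Metazoa_SRP gene (0.280), HAND1 (0.320) and RP11-571F15.2 (0.320), and for NODAL SATB1-AS1 (0.248), DPF3 (0.286) and RP11-697N18.3 (0.289). HAND1 was at 9.39, 4.37 and 1.98 CPM in WT, at 8.71, 7.82 and 9.97 in NC and at 15.2, 9.05 and 10.7 in ESX1, and it shared with BMP4 the low value in WT replicate 3.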
